A study of Rattus norvegicus with 2 samples.

Results

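The genes described here are those of class I antigen presentation and of the rat major histocompatibility complex, RT1. They were chosen by name: every symbol beginning with RT1-, together with B2m, Tap1, Tap2, Tapbp, Erap1, Nlrc5, Ciita and Cd74. This gave 33 of the 15409 symbols listed, 26 of them RT1 symbols, carried by 76 transcripts. Ciita, the class II transactivator, was not listed.

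Total RNA was taken from RBL-2H3, a transformed rat line of basophilic leukaemia origin that serves as a model of mast cells, and was sequenced in strand-specific libraries. The treated library came from cells given PM2.5 (fine particulate matter) plus IgE and DNP-HSA, an antibody and antigen pair that crosslinks the high-affinity IgE receptor. The saline library came from the same line given normal saline. The labels give no time, no unit for the number in the treated library's title, and nothing on IgE or antigen in the saline group, and the extraction protocol writes of PM2.5 or IgE-DNP-HSA, so that particles and receptor crosslinking cannot be told apart. Each group had 1 library, so differences could be neither tested nor checked against replicates. All values describe these libraries of 1 transformed line.

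The treated library held 3964955 reads and the saline library 7279671. Levels are normalised counts summed per symbol, on which 1 read is worth 1.65 in treated and 0.867 in saline cells. Log2 folds divide treated by saline values after adding 1 to each normalised count. Each interval is the exact 95% Clopper-Pearson one, expressed as a log2 ratio of normalised counts without the added 1. These intervals cover counting error only and no variation between libraries. They may be too narrow even for counting error, since reads are not independent molecules. Levels were not scaled to transcript length and are therefore compared between libraries, never between genes. Of 12 mast cell and basophil markers 10 were listed, and Mcpt8 and Tpsab1 were not. Among the 10 were the IgE receptor chains Fcer1a (408 treated and 574 saline reads, log2 fold 0.44) and Ms4a2 (1164 treated and 1283 saline reads, 0.79). The receptor Kit (5440 treated and 11946 saline reads) stood at -0.21. The markers did not share a direction, with Cpa3 highest at 1.74 and Hdc lowest at -1.07.

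Class I molecules display peptides from the cell's own cytosol to CD8 T cells and natural killer cells. Each consists of a polymorphic heavy chain, encoded in the rat by RT1-A and the many RT1-C/E, -M, -N, -S and -T24 genes, and the invariant light chain beta-2-microglobulin. Peptides enter the endoplasmic reticulum through the TAP transporter, are trimmed by Erap1 and are loaded with the help of tapasin. Class II molecules, encoded by RT1-B and RT1-D, present peptides from endosomes with the help of the invariant chain Cd74 and of RT1-DM. Class I promoters classically carry an upstream NF-kappaB site known as enhancer A, followed by an interferon-stimulated element bound by interferon regulatory factors (IRFs).

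Promoter windows of 7 genes are shown because they let the light chain, the RT1-A and RT1-CE heavy chains and RT1-N3, which lay on the other side of 0, be read side by side. Each is the 210 bases before the annotated start from RefSeq (GRCr8), 5′ to 3′ along the gene. Capitals mark the IRF core AANNGAAA on either strand, where it reads TTTCNNTT on the other strand, and the NF-kappaB site GGGATTCCC, which reads GGGAATCCC on the other strand; matches of these 2 motifs did not overlap each other in any member's window. The windows lie at chr3:129549120-129549329 on the plus strand for B2m, chr20:4906999-4907208 on the plus strand for RT1-A1, chr20:4872661-4872870 on the plus strand for RT1-A2, chr20:3484091-3484300 on the minus strand for RT1-CE5, chr20:3384980-3385189 on the minus strand for RT1-CE10, chr20:3265444-3265653 on the minus strand for RT1-CE16 and chr20:2666279-2666488 on the plus strand for RT1-N3.
B2m: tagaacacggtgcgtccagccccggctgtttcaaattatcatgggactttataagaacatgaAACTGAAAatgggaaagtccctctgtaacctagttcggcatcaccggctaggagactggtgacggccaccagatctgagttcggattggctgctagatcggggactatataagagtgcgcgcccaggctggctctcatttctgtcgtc
RT1-A1: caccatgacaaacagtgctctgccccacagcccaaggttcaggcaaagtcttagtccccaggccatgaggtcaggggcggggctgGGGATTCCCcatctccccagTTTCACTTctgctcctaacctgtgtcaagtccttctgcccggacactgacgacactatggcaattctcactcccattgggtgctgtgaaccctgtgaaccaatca
RT1-A2: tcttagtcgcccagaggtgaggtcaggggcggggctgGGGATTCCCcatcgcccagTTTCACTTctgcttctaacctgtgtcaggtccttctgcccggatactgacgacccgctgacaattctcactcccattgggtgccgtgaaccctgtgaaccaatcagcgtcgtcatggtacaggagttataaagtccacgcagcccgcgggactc
RT1-CE5: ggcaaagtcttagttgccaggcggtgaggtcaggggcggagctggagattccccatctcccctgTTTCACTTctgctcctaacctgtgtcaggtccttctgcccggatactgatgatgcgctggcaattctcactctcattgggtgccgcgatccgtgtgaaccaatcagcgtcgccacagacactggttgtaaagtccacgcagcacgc
RT1-CE10: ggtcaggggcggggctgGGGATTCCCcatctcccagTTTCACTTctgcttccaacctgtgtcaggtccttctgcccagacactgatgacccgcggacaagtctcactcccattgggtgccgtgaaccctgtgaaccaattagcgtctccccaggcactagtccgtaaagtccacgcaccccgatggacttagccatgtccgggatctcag
RT1-CE16: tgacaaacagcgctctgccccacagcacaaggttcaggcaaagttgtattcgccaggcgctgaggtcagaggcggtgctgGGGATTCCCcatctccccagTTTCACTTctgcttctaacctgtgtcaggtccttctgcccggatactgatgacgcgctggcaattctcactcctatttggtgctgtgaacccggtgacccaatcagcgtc
RT1-N3: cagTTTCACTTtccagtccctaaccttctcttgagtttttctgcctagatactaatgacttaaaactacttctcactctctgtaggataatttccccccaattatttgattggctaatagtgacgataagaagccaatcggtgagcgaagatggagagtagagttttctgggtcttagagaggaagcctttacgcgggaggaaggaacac

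RefSeq windows of 300 bases (250 before to 50 after the start) were matched for 28 of the 33 symbols, among them 19 class I heavy chains. The letters GGGATTCCC, searched on both strands, were found in 5 of the 19 heavy chain windows (RT1-A1, RT1-A2, RT1-CE4, RT1-CE10 and RT1-CE16), against 0.365% of all 33469 windows of this length. The IRF core was found in 17 of the 19 heavy chain windows, and in 23 of the 28 windows of all the matched symbols, against 26.4% of all windows. It stood in the form TTTCACTT in RT1-A1, RT1-A2, RT1-CE3, RT1-CE5, RT1-CE10, RT1-CE16, RT1-M3-1 and RT1-N3. The same letters read on the other strand, AAGTGAAA, stood in Tap2 and Tapbp. The B2m window held an IRF core of other letters and no GGGATTCCC. GGGATTCCC was also absent from the windows of RT1-CE3, RT1-CE5 and RT1-T24-4, with log2 fold intervals above 0. It was absent from that of RT1-N3 too, with an interval below 0. A relation of these letters to the folds was not tested. Among the 28 windows, the letters CCAAT were found in 19, TGACG in 8 and TTCNNNGAA in 1, against 37.5%, 21.2% and 8.87% of all windows. Several of these windows are copies of one another, so their matches are not separate observations. A match is a description of letters, not of binding. Only the exact letters GGGATTCCC were sought, so a window without them may still hold an NF-kappaB site of other letters.

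**Figure D1:**
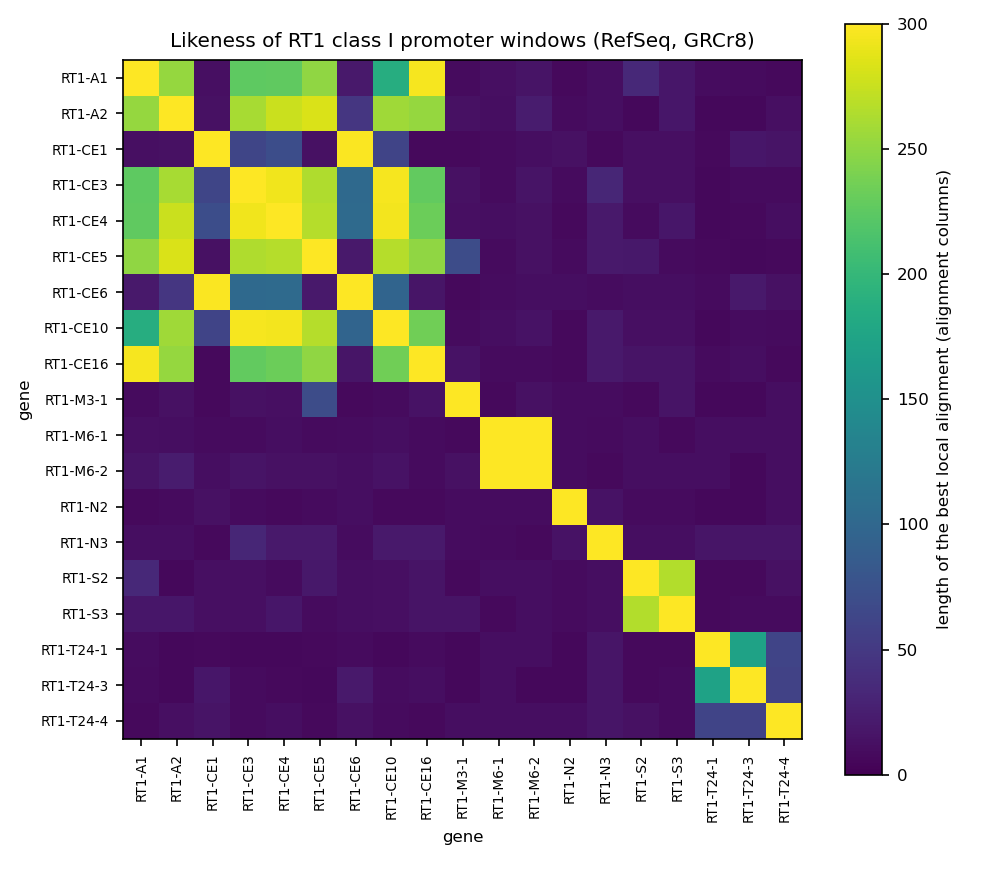
Length of the best local alignment, in alignment columns of 300-base promoter windows, for each pair of the 19 RT1 class I heavy chain genes matched in RefSeq (GRCr8); both axes list the genes and brighter cells are longer alignments. Among the 9 RT1-A and RT1-CE genes, 24 of 36 pairs aligned over at least 100 columns, against 3 of the 135 other pairs.

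Only promoter windows were compared; how alike the transcribed parts of the copies are was not measured. Over the 24 RT1-A and RT1-CE pairs that aligned over at least 100 columns, the identity ranged from 78.6% to 92.9%, with a median of 84.7%. RT1-A1 and RT1-A2 were the closest of them at 92.9% over 253 columns. RT1-M6-1 and RT1-M6-2 were 96.7% identical over 300 columns. The sources used here do not state how reads shared between such copies were assigned, so values of single RT1 symbols are uncertain, and sums over each group are given beside them. The sums have a limit of their own. A read counted for more than 1 copy enters a sum more than once, and the interval of that sum is then too narrow. Reads shared between RT1-A and RT1-CE copies could also enter the sums of both groups.

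Counted over the symbols, 32 of the 33 reached a normalised count of 1 in at least 1 library, a minimum that a low symbol can meet through the library in which it is higher. Of these 32, 6 (18.8%) were higher in treated than in saline cells by at least 2-fold, against 12.1% of the 15097 symbols that reached the minimum, and 5 (15.6%) were lower by as much, against 19.1%. The 6 were B2m, RT1-CE3, RT1-CE10, RT1-CE16, RT1-M6-2 and RT1-DOa, and the intervals of the last 2 of these held 0. The 5 were Nlrc5, RT1-Ba, RT1-N2, RT1-M6-1 and RT1-CE9-ps1, and the intervals of the last 3 of these held 0. By the interval alone, 11 (34.4%) lay above 0, against 22.8% of all symbols, and 8 (25%) below 0, against 26.8%. The median log2 fold was 0.088 over the 32 and -0.07 over all symbols. Members at 0 reads in 1 library were then set against a floor of 3 reads there, or to no difference if not above it. The median over the 32 then was 0.037. On 32 symbols each of these gaps to the background is a matter of a few symbols, and nothing particular to the members is read from them.

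**Figure D2:**
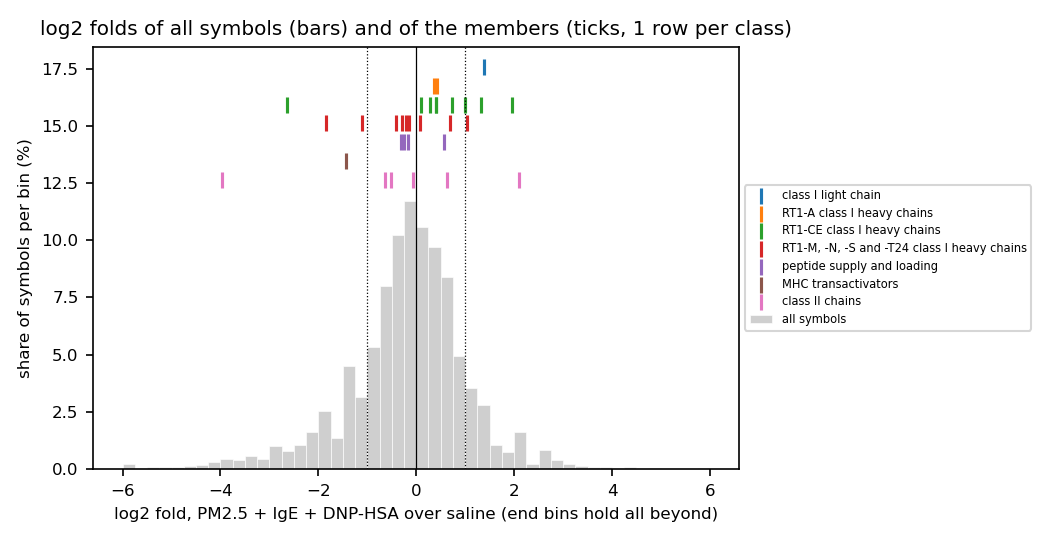
Share of the 15097 symbols per bin of log2 fold of the treated over the saline library (grey bars, in percent) with the 32 members that reached the minimum as ticks, 1 row per role; dotted lines mark 2-fold. The RT1-A and RT1-CE ticks lie above 0 but for RT1-CE9-ps1, and the other rows spread to both sides apart from B2m and Nlrc5, which are single ticks.

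B2m (ENSRNOG00000017123), the light chain shared by class I molecules, was higher in the treated library. It had a normalised count of 1439 in the treated library (871 reads) and 553 in the saline library (638 reads). The fold was 2.60, or 1.38 on the log2 scale (interval 1.23 to 1.53). Among the 28 members with at least 10 reads over both libraries, only RT1-CE10 had a higher log2 fold, on 23 reads.

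The classical heavy chains encoded by RT1-A, which present peptides to CD8 T cells, were higher by less. RT1-A2 (ENSRNOG00000030712) had a normalised count of 712 in the treated library (431 reads) and 552 in the saline library (636 reads), a log2 fold of 0.37 (interval 0.19 to 0.55). RT1-A1 (ENSRNOG00000038999) had 182 in the treated library (110 reads) and 135 in the saline library (156 reads), a log2 fold of 0.42 (interval 0.06 to 0.79). Both intervals lay above 0 and below that of B2m. Summed over both genes, the log2 fold was 0.38 (interval 0.22 to 0.54).

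The RT1-CE genes encode further class I heavy chains, and 8 of the 9 listed had a log2 fold above 0; the exception was the pseudogene RT1-CE9-ps1. Their reads summed to 1155 in treated and 1552 in saline cells, a log2 fold of 0.50 (interval 0.39 to 0.61). The well-covered copies differed by less than 2-fold. RT1-CE4 had normalised counts of 674 in treated and 513 in saline cells (0.39, interval 0.21 to 0.58). RT1-CE7 had 580 in treated and 347 in saline cells (0.74, interval 0.53 to 0.95). RT1-CE5 had 390 in treated and 322 in saline cells (0.28, interval 0.04 to 0.52), and RT1-CE1 had 94.1 in treated and 87.6 in saline cells, with an interval that held 0 (0.10, interval -0.39 to 0.59).

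The RT1-CE copies at least 2-fold higher had fewer reads than these. RT1-CE3 had 34 treated and 25 saline reads, normalised counts of 56.2 and 21.7 in treated and saline cells, and a log2 fold of 1.33 (interval 0.59 to 2.18). RT1-CE10 had 16 treated and 7 saline reads, normalised counts of 26.4 and 6.07 in treated and saline cells, and a log2 fold of 1.96 (interval 0.76 to 3.65). RT1-CE16, which joins 2 gene identifiers, had 50 treated and 47 saline reads and stood on the 2-fold line at 1.001 (interval 0.41 to 1.62), at 0.95 with equal library totals and at 0.80 with its highest transcript alone. RT1-CE6 (3 treated and 4 saline reads) had too few reads for a direction. RT1-CE9-ps1 had 0 treated and 6 saline reads. It was 1.05-fold lower if the treated library is set to a floor of 3 reads, with an upper log2 interval limit of 0.69.

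**Figure D3:**
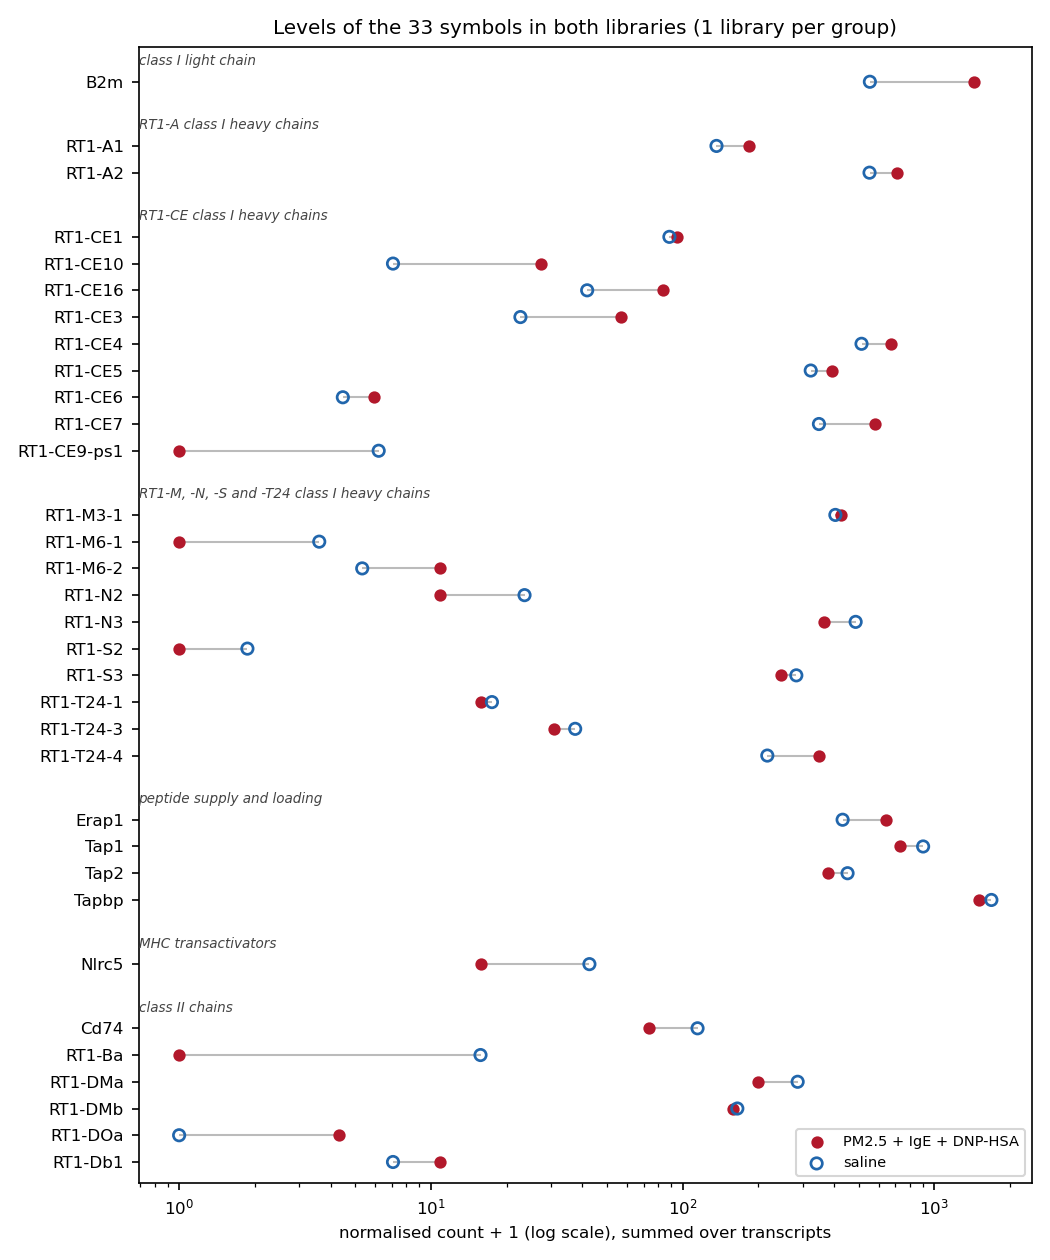
Normalised count plus 1 (log scale) of the 33 symbols, summed over transcripts, in the treated library (filled red) and the saline library (open blue), grouped by role; a point at 1 is a count of 0. B2m stands at a count of 1439 in treated and 553 in saline cells, whereas Tap1, Tap2 and Tapbp stand slightly to the left in the treated library.

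The RT1-M, -N, -S and -T24 heavy chains, largely non-classical class I genes, did not share a direction. Their reads summed to 874 in treated and 1695 in saline cells, a log2 fold of -0.03 with an interval that held 0 (-0.15 to 0.09). RT1-M3-1, the rat counterpart of H2-M3, which in the mouse presents formylated peptides, had normalised counts of 424 in treated and 403 in saline cells (0.07, interval -0.15 to 0.30). RT1-S3, listed by RefSeq with the synonym H2-T23 (in the mouse the Qa-1 heavy chain, which presents leader peptides of other class I chains to natural killer cell receptors), had 244 in treated and 282 in saline cells (-0.20, interval -0.50 to 0.08). RT1-N3 had 363 in treated and 486 in saline cells, and its interval lay below 0 (-0.42, interval -0.65 to -0.19). RT1-T24-4 had 347 in treated and 216 in saline cells, and its interval lay above 0 (0.68, interval 0.41 to 0.95).

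The remaining symbols of this group had few reads and intervals that held 0. RT1-N2 (6 treated and 26 saline reads) stood at -1.11 (interval -2.76 to 0.13). RT1-M6-2 (6 treated and 5 saline reads) stood at 1.03 (interval -0.78 to 3.24), and RT1-M6-1, its near copy, had 0 treated and 3 saline reads. RT1-T24-1 (9 treated and 19 saline reads) stood at -0.14 and RT1-T24-3 (18 treated and 42 saline reads) at -0.28, RT1-T24-3 turning to above 0 when its highest transcript was taken alone or when the saline library was thinned. RT1-S2 had 1 read, in the saline library, and fell under the minimum of a normalised count of 1. All 21 class I heavy chains together summed to 2570 treated and 4039 saline reads, a log2 fold of 0.28 (interval 0.21 to 0.35), below the interval of B2m.

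Of the 4 genes that supply and load peptides, 3 lay slightly below 0 and 1 above. Tap1 and Tap2, the subunits of the peptide transporter, had normalised counts of 728 and 378 in the treated library and 901 and 451 in the saline library. Their log2 folds were -0.31 (interval -0.47 to -0.14) for Tap1 and -0.25 (interval -0.48 to -0.03) for Tap2. Tapbp, which encodes tapasin, had 1500 in treated and 1683 in saline cells (-0.17, interval -0.28 to -0.05). Erap1, the aminopeptidase that trims peptides in the endoplasmic reticulum, had 642 in treated and 431 in saline cells (0.57, interval 0.38 to 0.77). All 4 stayed within 2-fold, Erap1 alone with an interval above 0.

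Nlrc5, the class I transactivator, was lower in the treated library. It had 9 treated and 48 saline reads, normalised counts of 14.9 and 41.6 in treated and saline cells, and a log2 fold of -1.43 (interval -2.70 to -0.44). Its direction was thus opposite to that of B2m and of the RT1-A and RT1-CE sums.

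The class II genes were lower when summed, with 267 treated and 673 saline reads and a log2 fold of -0.40 (interval -0.61 to -0.20). The sum includes RT1-DMa and RT1-DMb, each under 2 gene identifiers that may share reads. Its interval and those of RT1-DMa and RT1-DMb may therefore be too narrow. Cd74, the invariant chain that guides class II molecules to endosomes, had normalised counts of 72.7 in treated and 114 in saline cells (-0.64, interval -1.17 to -0.14). RT1-DMa, a chain of the peptide exchange catalyst DM, had 198 in treated and 285 in saline cells (-0.52, interval -0.84 to -0.22). Its partner RT1-DMb had 157 in treated and 164 in saline cells (-0.06, interval -0.43 to 0.30).

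The chains that form the class II molecules themselves were near the detection limit. RT1-Ba, the alpha chain of RT1-B, had 0 treated and 17 saline reads. This was 2.98-fold lower against the floor of 3 reads, and the upper limit of the log2 interval was -1.12. RT1-Db1, a beta chain of RT1-D, had 6 treated and 7 saline reads (0.63, interval -1.14 to 2.504). RT1-DOa, a chain of the DM modulator DO, had 2 treated and 0 saline reads, too few for a fold. Markers of other immune cell types were listed in part: none of 5 B cell markers, 2 of 6 dendritic cell markers, 4 of 7 macrophage markers and 1 of 7 T and NK cell markers. The summed normalised count of the macrophage markers was 704 in treated and 1471 in saline cells, and without Csf1r (286 treated and 1401 saline reads) it was 231 in treated and 256 in saline cells. Of the other macrophage markers, Cd14 stood at a log2 fold of -0.03, Adgre1 at -0.13, and Cd68 had 0 treated and 19 saline reads. The sum of the dendritic cell markers was 1629 in treated and 2232 in saline cells, of which Itgax made up 1620 and 2210. Zbtb46, the other one listed, had 5 treated and 25 saline reads. Nkg7, the T and NK cell marker listed, had a normalised count of 656 in treated and 740 in saline cells. Both libraries came from the same cell line, so these markers are not read here as other cell types. Their part in the class II values was not tested. In bulk RNA, fewer cells with a transcript and less of it per cell cannot be told apart.

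**Figure D4:**
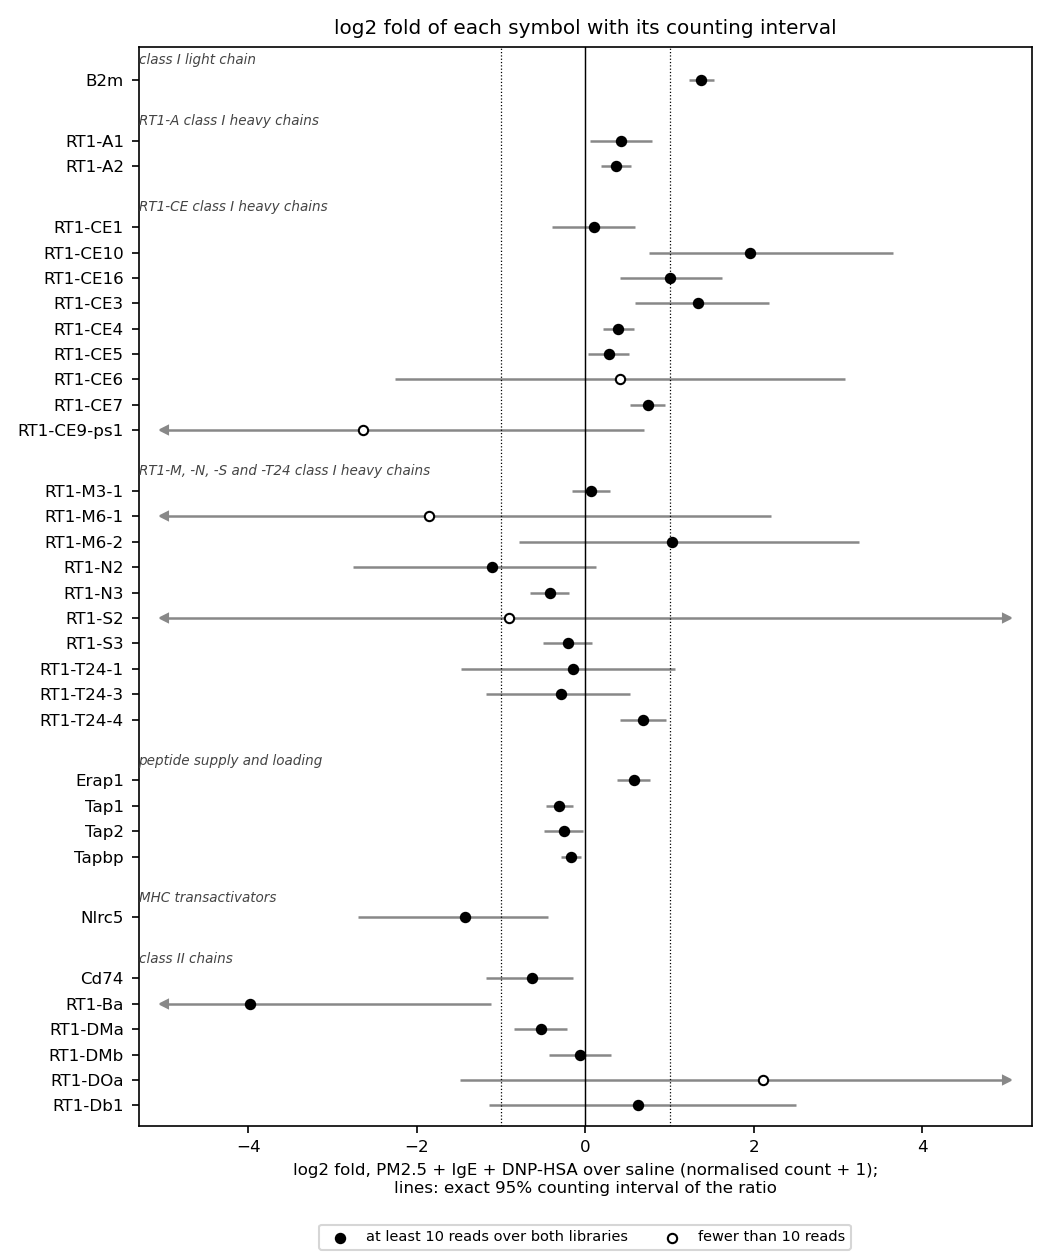
Log2 fold of the treated over the saline library (normalised count plus 1) for each of the 33 symbols, grouped by role; lines are exact 95% counting intervals, arrows mark limits beyond the axis, open points have fewer than 10 reads and dotted lines mark 2-fold. B2m lies at 1.38, RT1-A1, RT1-A2, RT1-CE4, RT1-CE5 and RT1-CE7 between 0.28 and 0.74, RT1-CE1 at 0.10, and Tap1, Tap2 and Tapbp slightly below 0.

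Within several genes the transcripts disagreed. In RT1-A1, whose summed log2 fold was 0.42, reads lay with different transcripts in the treated and the saline library. Its transcript ENSRNOT00000080900 had 86 treated and 6 saline reads, a log2 fold of 4.53 (interval 3.59 to 6.26), and ENSRNOT00000089306 had 19 treated and 3 saline reads (3.17, interval 1.83 to 5.992). In contrast, ENSRNOT00000041590 had 0 treated and 67 saline reads, 11.7-fold lower against the floor (upper log2 interval limit -3.21). ENSRNOT00000082538 had 0 treated and 36 saline reads, 6.30-fold lower against the floor (upper log2 interval limit -2.28). ENSRNOT00000081240 had 2 treated and 44 saline reads (-3.19, interval -6.62 to -1.59). The first pair made up 78.2% and 17.3% of the gene's reads in the treated library and 3.85% and 1.92% in the saline library.

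RT1-CE4 showed a smaller exchange. Its main transcript ENSRNOT00000082497 had 266 treated and 448 saline reads (0.18, interval -0.05 to 0.40). ENSRNOT00000047779 had 127 treated and 83 saline reads (1.53, interval 1.13 to 1.96). ENSRNOT00000041151 had 0 treated and 60 saline reads, 10.5-fold lower against the floor (upper log2 interval limit -3.05). ENSRNOT00000064734 had 15 treated and 0 saline reads, 9.52-fold higher against the floor (lower log2 interval limit 2.77). RT1-T24-3 had 1 transcript with 10 treated and 0 saline reads, and others with 0 treated and 19 saline reads and with 0 treated and 16 saline reads. By contrast, the transcripts of RT1-A2 kept their shares, the main one holding 94.2% of the gene's reads in treated and 94.2% in saline cells.

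Erap1 was also split. ENSRNOT00000080222 had 264 treated and 212 saline reads (1.24, interval 0.98 to 1.51), whereas ENSRNOT00000013625 had 125 treated and 285 saline reads (-0.26, interval -0.57 to 0.05). The larger share thus lay with a different transcript in each library, 67.9% with the first in the treated library and 57.3% with the other in the saline library. In RT1-CE7 the transcript ENSRNOT00000047527 stood at 1.14 (interval 0.84 to 1.46), and the other 2 at 0.29 and 0.45 with intervals that held 0.

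**Figure D5:**
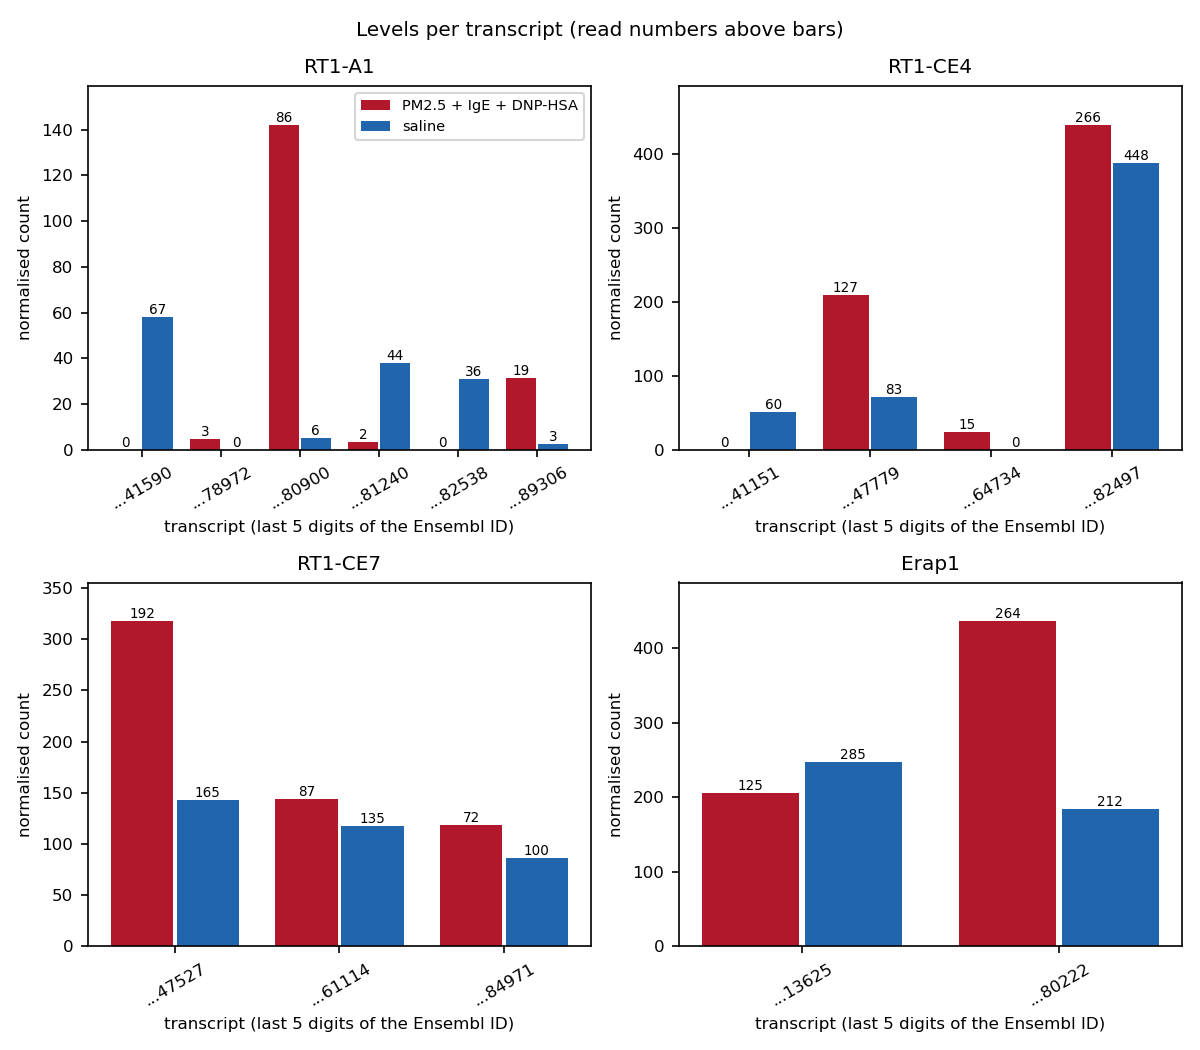
Normalised counts of each annotated transcript of RT1-A1, RT1-CE4, RT1-CE7 and Erap1 in the treated library (red, left) and the saline library (blue, right), with read numbers above the bars. In RT1-A1 ENSRNOT00000080900 carries 86 treated and 6 saline reads, and ENSRNOT00000041590 carries 0 treated and 67 saline reads.

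Over the 63 RT1 transcripts, 36 had at least 10 saline reads, and 7 of these (19.4%) had 0 treated reads, against 6.86% of all transcripts with at least 10 saline reads. Of the 27 with at least 10 treated reads, 2 (7.41%) had 0 saline reads, against 1.84% of all such transcripts. Among the 13 transcripts of the other members these numbers were 0 of 10 and 0 of 9. The 7 belonged to RT1-A1, RT1-Ba, RT1-CE4, RT1-N2 and RT1-T24-3. RT1-Ba had only 1 transcript listed and both transcripts of RT1-N2 had lower normalised counts in treated cells, so neither gene shows an exchange. The part of read assignment in these values was not tested. The authors' deposited table gave none of the 76 member transcripts a p-value under 0.05, against 0.319% of all transcripts there. Among the members RT1-A1 was lowest at 0.0779 (ENSRNOT00000080900) and B2m next at 0.0825. The adjusted p-value of both was 0.92 there, which was also the lowest of all transcripts in that table. No member transcript was among the 57 of the authors' deposited table of selected mRNAs. As 20367 transcripts were listed in all, this says little about the members.

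The duplicated DM genes had like values, and the sources used here do not state how reads shared between them were counted. Sums over such a pair may count a read more than once. RT1-DMa stands under 2 gene identifiers, with 56 treated and 156 saline reads for ENSRNOG00000047854 and 64 treated and 173 saline reads for ENSRNOG00000047864, and log2 folds of -0.54 and -0.50. Their main transcripts each had 52 treated reads. The RT1-DMb pair had log2 folds of -0.12 for ENSRNOG00000049491 (43 treated and 89 saline reads) and -0.01 for ENSRNOG00000051002 (52 treated and 100 saline reads).

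Other genes of the pathway were taken from 7 lists. Their counts at 2-fold stand against the same 12.1% higher and 19.1% lower of all symbols, and their medians against -0.07. A list of 9 proteasome genes held the immunoproteasome subunits Psmb8, Psmb9 and Psmb10, the constitutive subunits Psmb5, Psmb6 and Psmb7 that these replace, and the activator genes Psme1, Psme2 and Psme3; 1 was at least 2-fold higher and none at least 2-fold lower, with a median log2 fold of 0.04. The immunoproteasome subunits, given here after their values were seen, stood at -0.05 for Psmb8 (interval -0.21 to 0.11), 0.50 for Psmb9 (interval 0.23 to 0.76) and 0.04 for Psmb10 (interval -0.50 to 0.55). The gene past 2-fold was Psme2, a subunit of the PA28 activator, with 280 treated and 230 saline reads (1.21, interval 0.96 to 1.47). Psme3 stood at -0.37. Of the constitutive subunits, Psmb7 stood at 0.54. Psmb5 and Psmb6, also given after their values were seen, stood at -0.42 (interval -0.62 to -0.22) and -0.19 (interval -0.37 to -0.01). Among genes of folding and loading in the endoplasmic reticulum, 1 of 8 was at least 2-fold higher and none lower, with a median of 0.36. Calr, which encodes the chaperone calreticulin of the loading complex, was at 0.08 and Canx, which encodes calnexin, at 0.90 (interval 0.83 to 0.96), while the general chaperone gene Hspa5 was at 1.96 (interval 1.91 to 2.02). Among cytosolic and endoplasmic reticulum peptidases, 1 of 6 listed was at least 2-fold higher and none lower (median 0.44), the one being Tpp2 at 1.12 (interval 0.98 to 1.25); Lnpep was at 0.68 and Npepps at 0.01.

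Among 24 regulators of MHC genes, 1 was at least 2-fold higher and 2 were at least 2-fold lower, with a median of -0.13. The higher one was Irf1, an IRF that activates class I genes, with 140 treated and 125 saline reads and a log2 fold of 1.09 (interval 0.73 to 1.45); it was named because the count was 1, after its value was seen. The lower ones were the cytokine signalling inhibitor Socs1 (16 treated and 221 saline reads, -2.81, interval -3.69 to -2.13) and the interferon receptor kinase Tyk2 (120 treated and 603 saline reads, -1.40, interval -1.69 to -1.11). Jak1 was at 0.29 and Stat3 at -0.21. By the interval, 6 of the 24 lay above 0 and 7 below, against 22.8% and 26.8% of all symbols. Of 10 interferon-induced genes 8 were listed, 4 at least 2-fold higher and 1 lower, with a median of 1.15; these include Isg15 (2 treated and 0 saline reads) and Mx1 (0 treated and 6 saline reads), named after their values were seen. Cxcl10 had 17 treated and 0 saline reads, 10.8-fold higher against a floor of 3 saline reads (lower log2 interval limit 2.97). Rsad2 had 40 treated and 4 saline reads (3.91, interval 2.78 to 6.20). Gbp2 had 149 treated and 98 saline reads (1.52, interval 1.16 to 1.92) and Usp18 was at 0.45.

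Of 10 class II proteases and helpers 6 were listed, 1 of them at least 2-fold higher and none lower, with a median of 0.06. That one was the cathepsin Ctsl at 1.41 (interval 1.24 to 1.58), with Ctsb at 0.30, Ctsd at -0.15 and Ifi30, a lysosomal thiol reductase, at -0.52. Of 9 class I-like genes outside the RT1 symbols 4 were listed, none at least 2-fold higher and 1, Fcgrt, lower by that rule, with a median of 0.50. Fcgrt had 0 treated and 4 saline reads, Raet1l was at 0.24 and Raet1d at 0.89, and the intervals of all 3 held 0.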

How the data were processed

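Transcript levels came from strand-specific TruSeq libraries of total RNA, 1 per group, per the labels' protocols. FastQC, STAR 2.5, Cuffnorm and DESeq 1.22.1 are named in the submitters' processing notes, with no role; the sources used here give neither a genome build nor how reads were counted. For each transcript the authors deposited a log2 value. Taken back to the linear scale, with 1 subtracted, these fell on whole multiples of 1 step in 100% of cases (tolerance 1e-06 reads), which gave the reads. P-values in the authors' deposited table, raw and adjusted, are quoted as listed, and its fold column runs saline over treated. A further 6 per-sample columns repeat the values and were left unused.

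Levels were summed over the transcripts of a symbol. No test was run, since each group has 1 library. A 2-fold difference needed a log2 fold of 1 or more and a normalised count of 1 or more in either library. The precision follows the depth: a symbol or transcript with 0 reads in 1 library is set against a floor of 3 reads there. A fold against the floor is not a lower limit, and the counting interval can allow a smaller one. The members and gene lists were chosen with earlier results of these data known; all members with a read are named, and from each list the 2 genes that differed most and the 2 of highest mean. Alternatives were another pseudocount, other minima, 3 scalings, the highest transcript alone, lncRNA transcripts left out, RT1 symbols as 1 entry and a thinned saline library; separate gene identifiers and members at 0 reads left out were chosen after seeing the data. The counting intervals were tested on simulated data. Promoter sequences and motif searches used RefSeq windows of GRCr8, whose annotation may differ from that of the deposited table. Local alignments scored 1 for a match, -2 for a mismatch, -3 to open and -1 to extend a gap. The software was Python 3.11.15 with NumPy 2.4.6, pandas 2.3.3, SciPy 1.17.1, Biopython 1.88 and Matplotlib 3.10.9.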

Additional observations from a re-analysis of the deposited data

How the results depend on the processing

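Leaving out a replicate could not be done, and no paired analysis was possible because each group has 1 library. Against 6 members at least 2-fold higher, there were 3 with a pseudocount of 5 (6.78% of all symbols), 10 with the highest transcript alone (13.3%) and 1 with all RT1 symbols summed to 1 entry (12.1%). Against 5 at least 2-fold lower, there were 3 with a pseudocount of 5 (10.9% of all symbols), 3 with at least 10 reads (12.8%), 1 with all RT1 symbols as 1 entry (19.1%) and 2 with symbols at 0 reads in 1 library left out (9.82%). Summing RT1 leaves 8 entries, whose median log2 fold was -0.21 against 0.088 in the report. With the highest transcript alone, RT1-A1 was at 4.53, RT1-M6-2 at 3.45, RT1-Db1 at 3.21, Erap1 at 1.24, RT1-CE7 at 1.14 and RT1-CE4 at 0.18. RT1-Db1, on 13 reads, was also past 2-fold at 2.07 with the saline library thinned. The other counts stayed within 1.5 times. No member past 2-fold changed sign; RT1-T24-3, within 2-fold, was at 1.01 with its highest transcript alone and at 0.05 with the saline library thinned, against -0.28 in the report. Scalings moved the median of all symbols by -0.056 to 0.022 on the log2 scale, and the sums of the groups kept their signs under each. Depth limits the 5 members with fewer than 10 reads.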
